A study of Mus musculus with 6 samples.

Results

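The genes described here encode the ephrin, Slit-Robo and netrin systems of axon guidance: 34 genes chosen by symbol from the 24041 genes of the deposited count table. They comprise 8 EphA and 5 EphB receptors, 5 ephrin-A and 3 ephrin-B ligands, 3 Slits, 3 Robo receptors, netrin-1, the netrin receptors DCC and neogenin, and 4 UNC5 receptors. RNA was sequenced from mouse cerebral cortex cells that had taken up plasmids by electroporation and were sorted by green fluorescence. All cells received GFP, together with wild-type PRPF6 in 3 libraries or a mutant PRPF6 in the other 3. PRPF6 is a protein of the spliceosome's tri-snRNP, and the labels give neither the mutation, nor the species of the plasmid's PRPF6, nor the age of the animals. No library went without a PRPF6 plasmid, so a higher level with mutant PRPF6 cannot be told apart from a lower level with wild-type PRPF6.

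Guidance molecules tell a growing axon or a migrating cell where to go. Ephrins sit in the membrane of a neighbouring cell and bind Eph receptor tyrosine kinases. Ephrin-A ligands are held by a lipid anchor and mostly bind EphA receptors, whereas ephrin-B ligands span the membrane and mostly bind EphB receptors. Slits are secreted and usually repel cells through Robo receptors. Netrin-1 attracts axons through DCC and repels them through UNC5 receptors. In the developing cortex these systems act in radial glia as well as in neurons, where they bear on progenitors, migration and the routes of cortical axons.

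Depth was 47564897 to 60600617 expected counts with wild-type and 45115122 to 57475218 with mutant PRPF6, and all 34 guidance genes passed the low-count filter, among 14451 genes tested. Markers of cortical radial glia and neurons were abundant in every library, but the libraries differed in their mixture, which the plot of marker lists shows. Mutant replicate 1 had the lowest summed level of young excitatory neuron genes, 3218 CPM (counts scaled to a common library size and composition), against 4306 to 8560.4 CPM in the other libraries. It also had the highest sum of radial glia genes, 5713 CPM against 2375 to 4818 CPM. Fabp7 alone gave 1536 CPM of that sum, against 343 to 578 CPM in the other libraries. Mutant replicate 3 was next, at 4818 CPM with 578 CPM of Fabp7, so the order of these libraries rests on that gene. Of the 15 radial glia genes 7 were highest in mutant replicate 1 and 1, Mki67, was lowest there. Of the 15 neuron markers 14 had a lower fitted mean with mutant PRPF6 and 9 were lowest in mutant replicate 1, while 14 of 15 radial glia markers had a higher fitted mean. Neurod6, a transcription factor of cortical excitatory neurons, stood at 57.5 CPM in mutant replicate 1, with a range of 583 to 1276 CPM over the rest. Wild-type replicate 3 held the most RNA of blood and meningeal cells, with a red blood cell sum of 16913 CPM, against 79.3 to 2639 CPM in the others, and a meningeal fibroblast sum of 1740.1 CPM, against 36.3 to 183 CPM. Mutant replicate 2 had the highest microglia sum, 1002 CPM against 47.4 to 349.8 CPM. In bulk RNA, fewer cells of a type and less RNA per cell cannot be told apart. The part of these differences in the guidance genes was not tested, and values without mutant replicate 1 are given for the genes with a test and for the families of 3 or more genes. Separate animals are not stated for the libraries, and p-values measure only the spread between them, which may be technical.

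**Figure D1:**
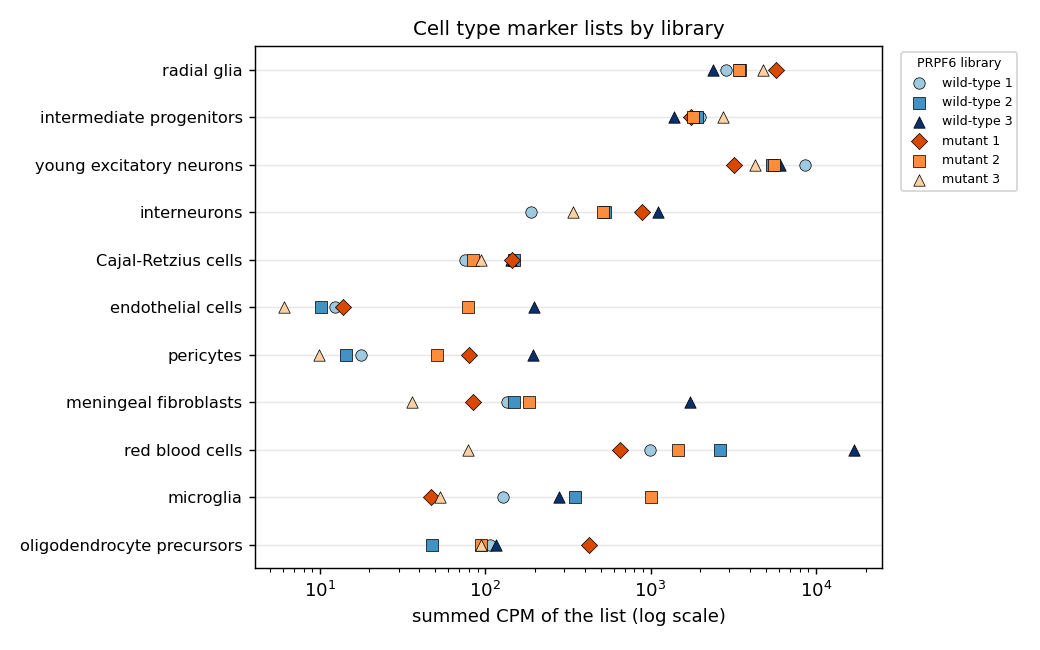
Summed CPM of each cell type marker list (horizontal axis, log scale) in the 3 wild-type (blue) and 3 mutant (orange) PRPF6 libraries, with 1 point per library. Mutant replicate 1 is lowest for young excitatory neurons (3218 CPM) and highest for radial glia (5713 CPM, of which Fabp7 gave 1536 CPM). Wild-type replicate 3 is highest for red blood cells (16913 CPM) and meningeal fibroblasts (1740.1 CPM).

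Guidance genes covered a wide span of levels. Of the 34, 8 had a mean of 100 CPM or more, not corrected for length (Epha3, Epha4, Epha5, Efnb1, Efnb2, Robo2, Dcc and Neo1), 19 lay between 10 and 100 CPM, and 7 were under 10 CPM (Epha2, Epha6, Epha8, Epha10, Efna1, Slit3 and Unc5b). Levels of different genes were compared per length, as mean CPM per kilobase of merged exon. On that scale the ligand gene Efnb1 was first at 106, followed by Efnb2 at 41.8, Epha3 at 41.0, Efna2 at 40.1 and Epha4 at 30.0 CPM per kilobase. Over the 6 libraries Efnb1 ranged from 56.2 to 162 and Efnb2 from 19.2 to 62.5 CPM per kilobase. These ranges overlapped, but within each of the 6 libraries Efnb1 was above Efnb2. Dcc, at 26.5 CPM per kilobase, was the netrin receptor gene of highest level, and Ntn1, the gene of its ligand, stood at 2.27, rank 27 of 34. At the bottom were Epha2, Slit3 and Epha6, at 0.597, 0.541 and 0.335 CPM per kilobase.

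**Figure D2:**
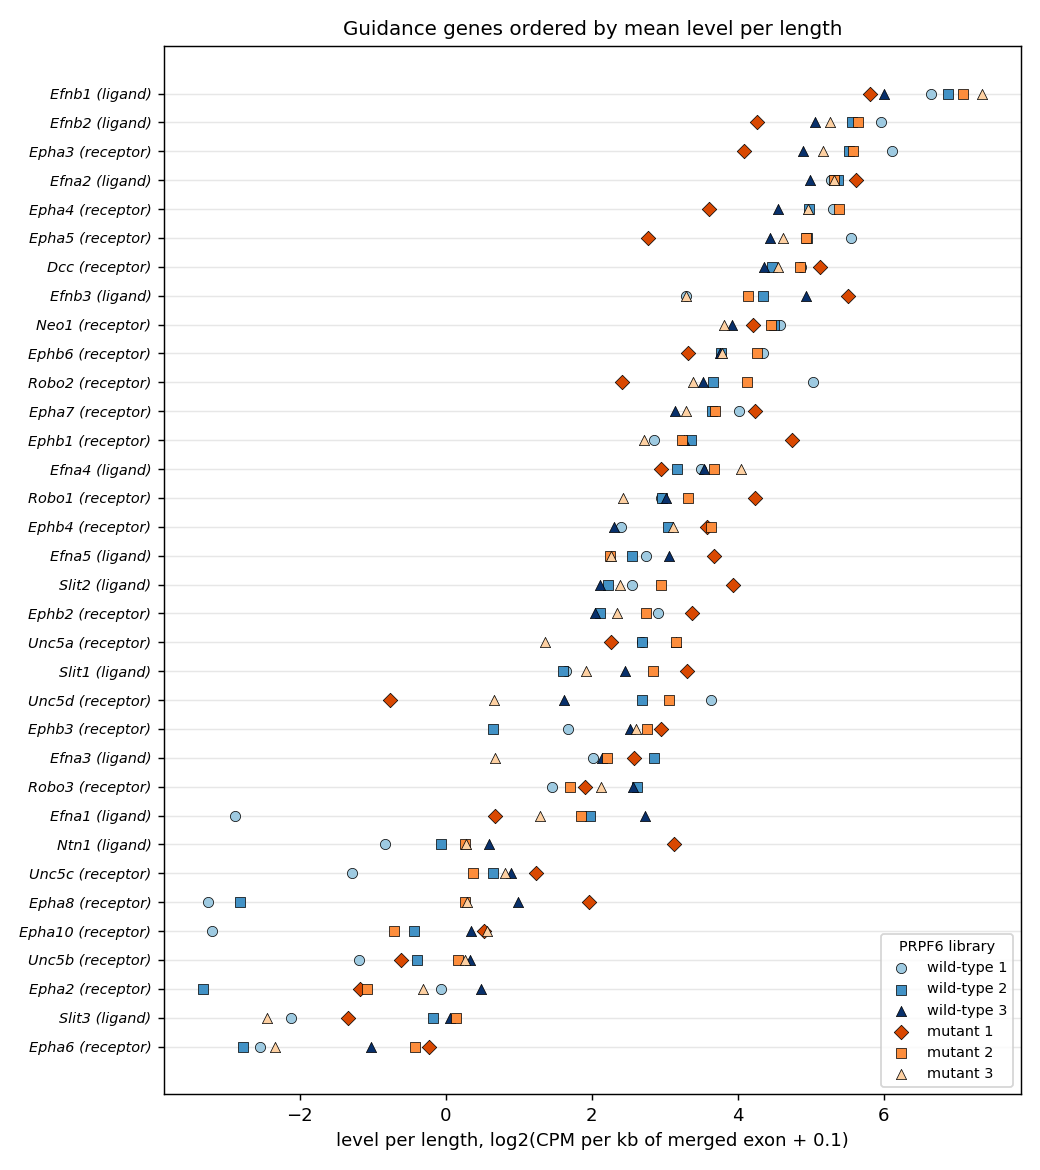
Level per length of the 34 guidance genes, log2(CPM per kilobase of merged exon + 0.1), with 1 point per library (blue wild-type, orange mutant PRPF6) and genes ordered by their mean. Efnb1 is at the top at a mean of 106 CPM per kilobase and Epha6 at the bottom at 0.335, and the diamonds of mutant replicate 1 are often the leftmost or rightmost point.

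Mutant and wild-type PRPF6 libraries were compared to ask whether guidance genes differ with the form of PRPF6 that the cells received. No guidance gene passed edgeR's quasi-likelihood test after Benjamini-Hochberg adjustment over all genes (0 of 34, adjusted p = 1.00 for each), and the test called 0% of all genes. The common biological coefficient of variation was 0.663, so a gene that did not pass is not thereby shown to be alike in the groups. Taken gene by gene, the coefficient had a median of 0.342 over all genes and 0.403 over the guidance genes. At an unadjusted p under 0.05 edgeR placed 489 genes, or 3.38% of those tested, with 2.18% higher and 1.2% lower with mutant PRPF6. Among them were 2 of the 34 guidance genes, Ephb4 and Slit2, both higher. limma-voom called 0 genes (551 at an unadjusted p under 0.05, 2 of them guidance genes). DESeq2 called 6 genes (0.104% of the 5756 with an adjusted p; 642 at an unadjusted p under 0.05, 4 of them guidance genes). None of the 6 was a guidance gene, and 17 of the 34 guidance genes had no DESeq2 adjusted p, so DESeq2 could not call them. Among these 17 were Ephb4, Ntn1 and Ephb3, at an unadjusted p of 0.0095, 0.0147 and 0.0408 in DESeq2's test. Slit2, the other of the 4, had an adjusted p of 0.590 in that test. The groups did not overlap for 2 guidance genes, Ephb3 and Ephb4, both higher with mutant PRPF6. Of all genes 9.14% did not overlap, 4.6% higher and 4.54% lower.

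Of the 34 guidance genes 20 had a higher fitted mean with mutant PRPF6 and 14 a lower one, where 49.8% of all genes had a higher one. The median log2 difference was 0.21 over the guidance genes and -0.0013 over all genes. Leaving out mutant replicate 1 brought the guidance median to 0.010, with 17 of 34 fitted means higher. The direction turned for 7 genes in that fit: Epha4, Epha7, Ephb1, Ephb6, Efna5, Efnb3 and Robo1.

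**Figure D3:**
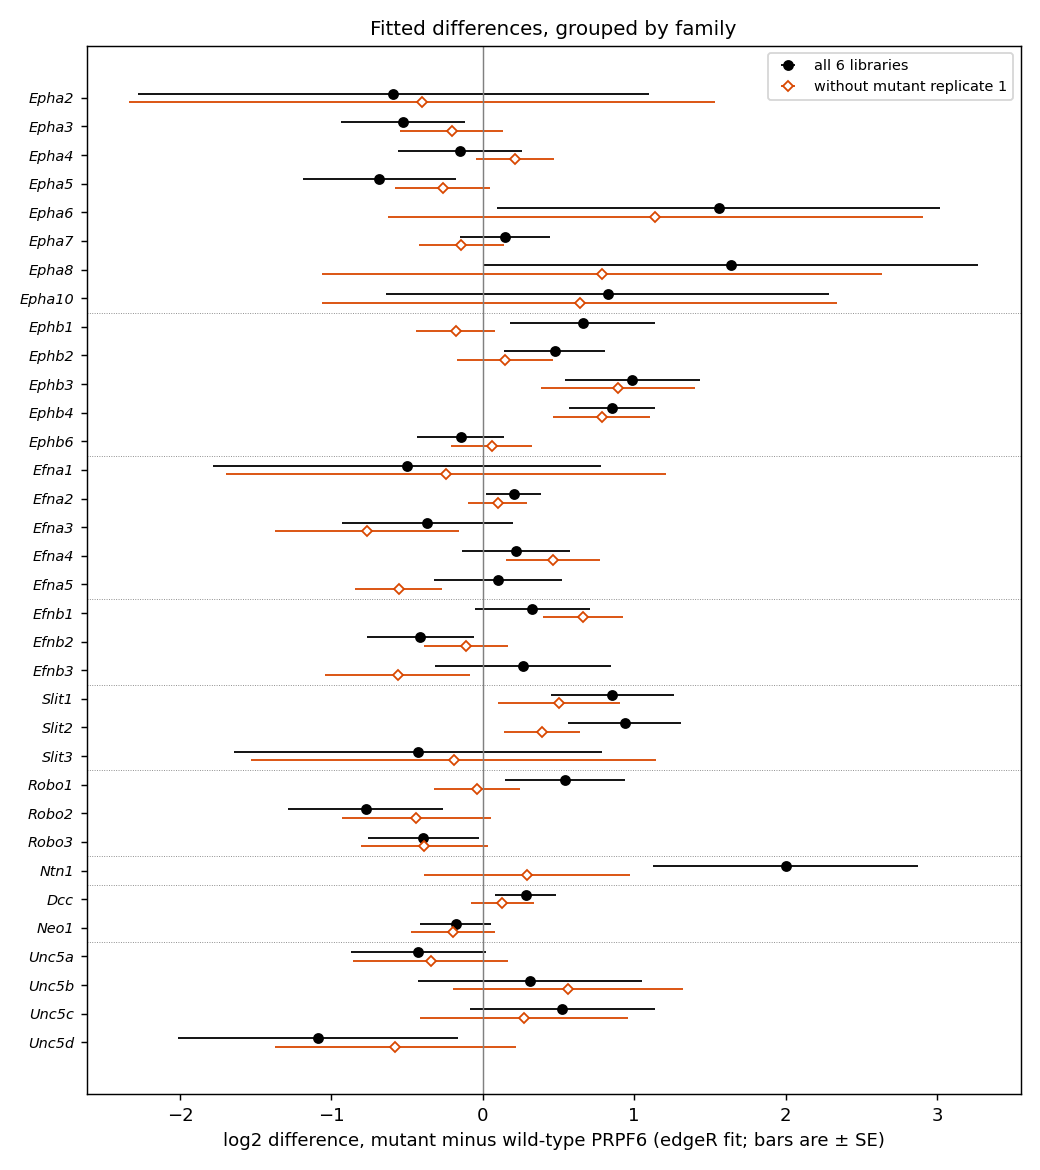
Fitted log2 difference (mutant minus wild-type PRPF6, horizontal axis, bars ± SE) of the 34 guidance genes by family, from all 6 libraries (black) and without mutant replicate 1 (orange). Ephb4 lies at 0.85 ± 0.28 and 0.79 ± 0.32 in the 2 fits, while Ntn1 goes from 2.00 ± 0.87 to 0.29 ± 0.68.

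EphB receptors are kinases that respond to ephrin-B ligands. Of the 5 genes, 4 had a higher fitted mean with mutant PRPF6 and 1 a lower one. Their median log2 difference was 0.66, or 0.14 without mutant replicate 1. Ephb4 (chromosome 5, 137350109 to 137378669, plus strand, GRCm38) encodes a receptor for ephrin-B2. In the order of replicates 1, 2 and 3, kept from here on, its level was 22.6, 35.6 and 21.1 CPM with wild-type and 51.9, 53.8 and 37.4 CPM with mutant PRPF6. Every mutant library was above every wild-type library, although mutant replicate 3 exceeded wild-type replicate 2 only narrowly. The groups averaged 26.4 ± 7.95 and 47.7 ± 8.95 CPM (SD, n = 3 each) and differed by 0.85 ± 0.28 log2 units (SE; edgeR quasi-likelihood test, unadjusted p = 0.0167, adjusted p = 1.00). Without mutant replicate 1 the difference was 0.79 ± 0.32 (SE), and over all fits that left out 1 library it ran from 0.72 to 1.12. Ephb4 is also known from the endothelium of veins. The endothelial list summed to 12.3, 10.2 and 198 CPM with wild-type and 13.9, 78.9 and 6.07 CPM with mutant PRPF6, with 1, 2 and 0 and 1, 0 and 1 of its 12 genes at 0. All 7 of its tested genes had a lower fitted mean with mutant PRPF6, and every gene of the list was highest in wild-type replicate 3. Wild-type replicate 3, first in endothelial RNA, had the lowest Ephb4 level and mutant replicate 2, the next, the highest, and the part of endothelial RNA in Ephb4 was not tested.

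Ephb3 (chromosome 16, 21204755 to 21223305, plus strand) encodes another ephrin-B receptor. Its level was 17.7, 8.42 and 32.3 CPM with wild-type and 43.5, 38.1 and 34.1 CPM with mutant PRPF6. The mutant libraries lay close together and above the wild-type ones, of which replicate 3 nearly reached them. The log2 difference was 0.99 ± 0.45 (SE; edgeR unadjusted p = 0.0582), or 0.89 ± 0.51 without mutant replicate 1. Leaving out wild-type replicate 3 instead gave 1.57 ± 0.40 (SE). With upper-quartile size factors only 1 guidance gene had no overlap, in place of 2. Ephb1 (chromosome 9, 101922128 to 102354693, minus strand) had the highest mean CPM of the EphB genes. Its level was 46.3, 66.3 and 61.9 CPM with wild-type and 173, 60.8 and 41.9 CPM with mutant PRPF6. Only mutant replicate 1 stood out, and the other mutant libraries were below wild-type replicates 2 and 3. The log2 difference of Ephb1 was 0.66 ± 0.48 with all libraries (SE; edgeR unadjusted p = 0.206) and -0.18 ± 0.26 without mutant replicate 1. Ephb2 lay at 44.1 to 81.3 CPM with wild-type and 54.7 to 112 CPM with mutant PRPF6. Ephb6, whose product lacks kinase activity, lay at 50.7 to 76.2 and 37.3 to 71.7 CPM.

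The EphA receptor genes divided into abundant and scarce ones, with 4 fitted means higher and 4 lower (median log2 difference -0.0026, and 0.034 without mutant replicate 1). Epha5 (chromosome 5, 84054761 to 84417382, minus strand), a receptor of cortical neurons, had the highest mean CPM of them before correction for length. Its level was 473, 312 and 219.8 CPM with wild-type and 68.2, 308 and 249 CPM with mutant PRPF6. Mutant replicates 2 and 3 lay inside the wild-type range, and the lowest other library was 3.22 times mutant replicate 1. The log2 difference was -0.68 ± 0.51 (SE; edgeR unadjusted p = 0.213), and -0.27 ± 0.31 without mutant replicate 1. Epha3, an ephrin-A receptor, was at 437, 289.5 and 187 CPM with wild-type and 106, 301 and 227 CPM with mutant PRPF6. Epha4, a receptor that binds ephrins of both classes, was at 251, 199.8 and 148 CPM and 76.8, 265 and 196 CPM. In these genes too mutant replicate 1 was the lowest library and the groups overlapped. Epha7 was instead highest in mutant replicate 1, at 142 CPM against 66.4 to 122 CPM elsewhere. The log2 differences were -0.53 ± 0.41 for Epha3, -0.15 ± 0.41 for Epha4 and 0.15 ± 0.30 for Epha7 (SE).

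The scarce EphA genes were uneven within groups. Epha8 had 1, 12 and 446 counts with wild-type and 1043, 258 and 232 counts with mutant PRPF6, or 0.0215 to 18.0 CPM. Wild-type replicate 3 was above mutant replicates 2 and 3, and the log2 difference of 1.64 ± 1.63 (SE) was about the size of its error. Without mutant replicate 1 it was 0.79 ± 1.85 (SE). With wild-type replicate 3 left out instead, which leaves wild-type libraries of 1 and 12 counts, it was 6.39 ± 1.41 (SE), and these are the ends of its range over single libraries left out. Epha10, which encodes a pseudokinase, had 1, 99 and 150 counts and 198, 65 and 154 counts. Epha6 lay at 0.181 to 1.54 CPM with wild-type and 0.388 to 2.96 CPM with mutant PRPF6. Epha2 had 0 counts in wild-type replicate 2, which allows a level of up to 0.0492 CPM (counting error only), and lay at 1.34 to 5.08 CPM in the others. For each of these genes the SE was over 1 log2 unit and the groups overlapped.

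Among the ephrin-B ligands, Efnb1 and Efnb2 had the highest mean levels per length of the guidance ligand genes. Efnb2 was only just above Efna2 (means of 41.8 and 40.1 CPM per kilobase), and Efna2 was the higher of them in mutant replicates 1 and 3. Efnb1 (chromosome X, 99136130 to 99148991, plus strand), which encodes ephrin-B1, was at 328, 384 and 209 CPM with wild-type and 183, 441 and 529 CPM with mutant PRPF6. Mutant replicates 2 and 3 were the highest libraries and mutant replicate 1 the lowest, so the mutant group enclosed the wild-type group. The log2 difference was 0.33 ± 0.38 (SE; edgeR unadjusted p = 0.417) with all libraries. Without mutant replicate 1 it was 0.66 ± 0.26 (SE; edgeR unadjusted p = 0.0394, adjusted p = 1.00), in a fit where 2.53% of all genes stood at an unadjusted p under 0.05 and 0% passed after adjustment. Efnb2, whose product is the ligand of EphB4, was at 299, 227 and 159.9 CPM with wild-type and 92.1, 239 and 184 CPM with mutant PRPF6. Its groups overlapped, with mutant replicate 1 again lowest. The ephrin-B median was 0.26, or -0.11 without that library. Efnb3, another ephrin-B gene, was at 31.0, 64.6 and 97.6 CPM and 145, 56.2 and 31.0 CPM, highest in mutant replicate 1.

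RSEM, the counting program, can give a fractional count where a read matches several genes. Of the genes tested 2392 had such a value, but the counts of all 34 guidance genes were whole in every library. Efnb1 and Efnb2 are close relatives, and their last coding stretch is shown because it is the part of the intracellular tail, known to bind PDZ-domain proteins, where the sequences can be compared base by base. It comprises the last 99 coding bases before the stop codon, in exon 5 of each gene, at chrX:99147426-99147524 (plus strand) and chr8:8620591-8620689 (minus strand), GRCm38, from GENCODE transcripts. Capitals mark bases that are the same in both.
Efnb1: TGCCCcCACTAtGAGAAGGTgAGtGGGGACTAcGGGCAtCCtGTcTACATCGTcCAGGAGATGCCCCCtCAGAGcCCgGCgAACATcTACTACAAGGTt
Efnb2: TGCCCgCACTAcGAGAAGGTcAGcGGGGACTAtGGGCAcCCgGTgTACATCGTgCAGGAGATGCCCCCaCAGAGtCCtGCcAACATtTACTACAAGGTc
Of the 99 bases 84 are the same (84.8%), and the longest unbroken run of shared bases is 14.

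Ephrin-A ligand genes were mostly of middle or low level. Efna2 (chromosome 10, 80179482 to 80190010, plus strand), the highest of them per length, was at 82.3, 88.3 and 67.3 CPM with wild-type and 105, 84.6 and 85.1 CPM with mutant PRPF6. The groups overlapped, with mutant replicate 1 highest (log2 difference 0.21 ± 0.18, SE; edgeR unadjusted p = 0.291, and 0.10 ± 0.19 without that library). Efna5, a ligand known for mapping axons between thalamus and cortex, was at 26.6, 23.3 and 33.1 CPM with wild-type and 51.2, 18.7 and 18.9 CPM with mutant PRPF6. Mutant replicate 1 was the highest library and the other mutant libraries the lowest. Efna4 lay at 14.2 to 18.5 CPM with wild-type and 12.3 to 26.2 CPM with mutant PRPF6, and Efna3 at 9.37 to 16.9 and 3.56 to 14.0 CPM. Efna1 had 3 counts in wild-type replicate 1, or 0.0644 CPM, and lay at 2.75 to 11.97 CPM in the others. Over the family 3 fitted means were higher and 2 lower (median log2 difference 0.10). Without mutant replicate 1 the family had 2 higher and 3 lower, with a median of -0.24.

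Slit2 (chromosome 5, 47983138 to 48307733, plus strand) was the guidance ligand gene with the lowest unadjusted p. Its level was 57.9, 45.9 and 42.5 CPM with wild-type and 152, 76.2 and 51.8 CPM with mutant PRPF6. Mutant replicates 1 and 2 lay above all wild-type libraries and mutant replicate 3 lay among them. The groups averaged 48.8 ± 8.10 and 93.3 ± 52.2 CPM (SD, n = 3 each) and differed by 0.94 ± 0.37 log2 units (SE; edgeR quasi-likelihood test, unadjusted p = 0.0361, adjusted p = 1.00). Without mutant replicate 1 the difference was 0.39 ± 0.25 (SE). Slit1, another secreted repellent, was at 17.7, 17.3 and 31.5 CPM with wild-type and 57.3, 41.2 and 21.7 CPM with mutant PRPF6. Mutant replicate 3 lay inside the wild-type range, and the log2 difference was 0.85 ± 0.41 (SE), or 0.51 ± 0.40 without mutant replicate 1. Slit3 was scarce, at 0.687 to 4.94 CPM and 0.433 to 5.25 CPM. The family median was 0.85, or 0.39 without mutant replicate 1.

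Of the Robo receptor genes 1 had a higher and 2 a lower fitted mean (median log2 difference -0.39). Without mutant replicate 1 all 3 were lower, with a median of -0.39. Robo2 (chromosome 16, 73891839 to 74411825, minus strand), the highest of them per length, was at 291, 112 and 102 CPM with wild-type and 46.6, 156 and 92.7 CPM with mutant PRPF6. Wild-type replicate 1 was the highest library and mutant replicate 1 the lowest, and mutant replicate 2 was above the other wild-type libraries. The log2 difference was -0.77 ± 0.51 (SE; edgeR unadjusted p = 0.169), or -0.44 ± 0.49 without mutant replicate 1, and it ran from -1.27 to -0.12 when single libraries were left out, nearest 0 without wild-type replicate 1. Robo1 was nearly constant with wild-type PRPF6, at 57.9, 58.3 and 60.4 CPM, and spread with mutant PRPF6, at 142, 75.0 and 39.8 CPM. The wild-type libraries of Robo1 thus lay inside the mutant range (log2 difference 0.54 ± 0.40, SE, and -0.037 ± 0.28 without mutant replicate 1). Robo3, whose product opposes Slit repulsion in crossing axons, was at 13.6, 31.0 and 29.9 CPM and 18.7, 16.1 and 21.9 CPM, with overlapping groups.

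Ntn1 (chromosome 11, 68209364 to 68400823, minus strand), which encodes netrin-1, had the largest fitted difference of the guidance genes, and that difference rested on 1 library. Its level was 2.84, 5.20 and 8.55 CPM with wild-type and 52.9, 6.73 and 6.82 CPM with mutant PRPF6. Mutant replicate 1 was 6.18 times the next highest library, wild-type replicate 3, and the other mutant libraries lay between wild-type replicates 2 and 3. The log2 difference was 2.00 ± 0.87 (SE; edgeR unadjusted p = 0.0509) with all libraries and 0.29 ± 0.68 (SE) without mutant replicate 1.

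Among the netrin receptors, Dcc was even and Unc5d was not. Dcc (chromosome 18, 71253634 to 72351069, minus strand) was at 299.9, 229 and 211 CPM with wild-type and 361, 298 and 242 CPM with mutant PRPF6. The groups overlapped, since wild-type replicate 1 was above mutant replicates 2 and 3 (log2 difference 0.28 ± 0.20, SE; edgeR unadjusted p = 0.196, and 0.13 ± 0.21 without mutant replicate 1). Neo1, which encodes neogenin, a receptor of netrins and of repulsive guidance molecules, was at 176, 166 and 111 CPM and 137, 161 and 103 CPM, also with overlap (-0.18 ± 0.23, SE, and -0.20 ± 0.28 without mutant replicate 1). Unc5d (chromosome 8, 28646717 to 29219636, minus strand), a receptor of migrating cortical neurons, was at 114, 58.6 and 27.4 CPM with wild-type and 4.51, 75.7 and 13.7 CPM with mutant PRPF6. Its highest library was 25.3 times its lowest, mutant replicate 1, and mutant replicate 2 was above wild-type replicates 2 and 3. The log2 difference was -1.09 ± 0.92 (SE; edgeR unadjusted p = 0.272), or -0.58 ± 0.80 without mutant replicate 1, and over single libraries left out it ran from -2.87 to -0.46, farthest from 0 without mutant replicate 2. Unc5a lay at 25.3 to 35.1 CPM with wild-type and 9.83 to 35.3 CPM with mutant PRPF6. Unc5c had a low wild-type replicate 1, at 3.03 CPM against 11.6 to 21.9 CPM in the others, and Unc5b lay at 2.00 to 6.82 CPM in all libraries. The UNC5 median was -0.058, and -0.037 without mutant replicate 1.

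The map of genes by library shows how single libraries stood in the guidance genes. In mutant replicate 1, 15 of 34 guidance genes had their highest level of the 6 libraries (44.1%, against 23.3% of all genes tested) and 9 their lowest (26.5%, against 24.1%). By a measure chosen after the values were seen, 12 of the 34 lay more than 1.5 times outside the range of the other 5 libraries in mutant replicate 1 (35.3%, against 15.5% of all genes). Above that range were Ntn1, Ephb1, Epha8, Slit2, Robo1 and Efna5, and below it Epha5, Unc5d, Robo2, Epha4, Epha3 and Efnb2. In wild-type replicate 1 the same measure gave 9 genes (26.5%, against 10.9%). The 3 of these that were above (Epha5, Robo2 and Unc5d) were among those below in mutant replicate 1. The 6 that were below were Epha8, Epha10, Efna1, Ntn1, Unc5b and Unc5c, of which Epha8 and Ntn1 were above in mutant replicate 1. The remaining libraries gave 0 to 3 genes each. Young excitatory neuron markers summed highest in wild-type replicate 1, at 8560.4 CPM, and lowest in mutant replicate 1. Sox11 alone gave 3070 CPM of the sum in wild-type replicate 1. Tubb3 was instead lowest in that library, at 544 CPM, and stood at 728 CPM in mutant replicate 1. Mapt and Stmn2 were lowest in mutant replicate 3, at 38.3 and 97.1 CPM. Oligodendrocyte precursor genes summed to 427 CPM in mutant replicate 1 and to 48.0 to 117 CPM elsewhere. Cspg5 alone gave 227 CPM of that sum, and 5 of the 7 genes listed were highest in mutant replicate 1. Pdgfra and Sox10 were instead highest in wild-type replicate 3, at 17.9 and 3.64 CPM, against 3.55 and 0.758 CPM in mutant replicate 1. Interneuron genes summed lowest in wild-type replicate 1, at 190 CPM against 342 to 1106 CPM elsewhere. Of these genes Lhx6, Npy and Nkx2-1 were instead lowest in mutant replicate 3. The part of cell mixture in these guidance levels was not tested.

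**Figure D4:**
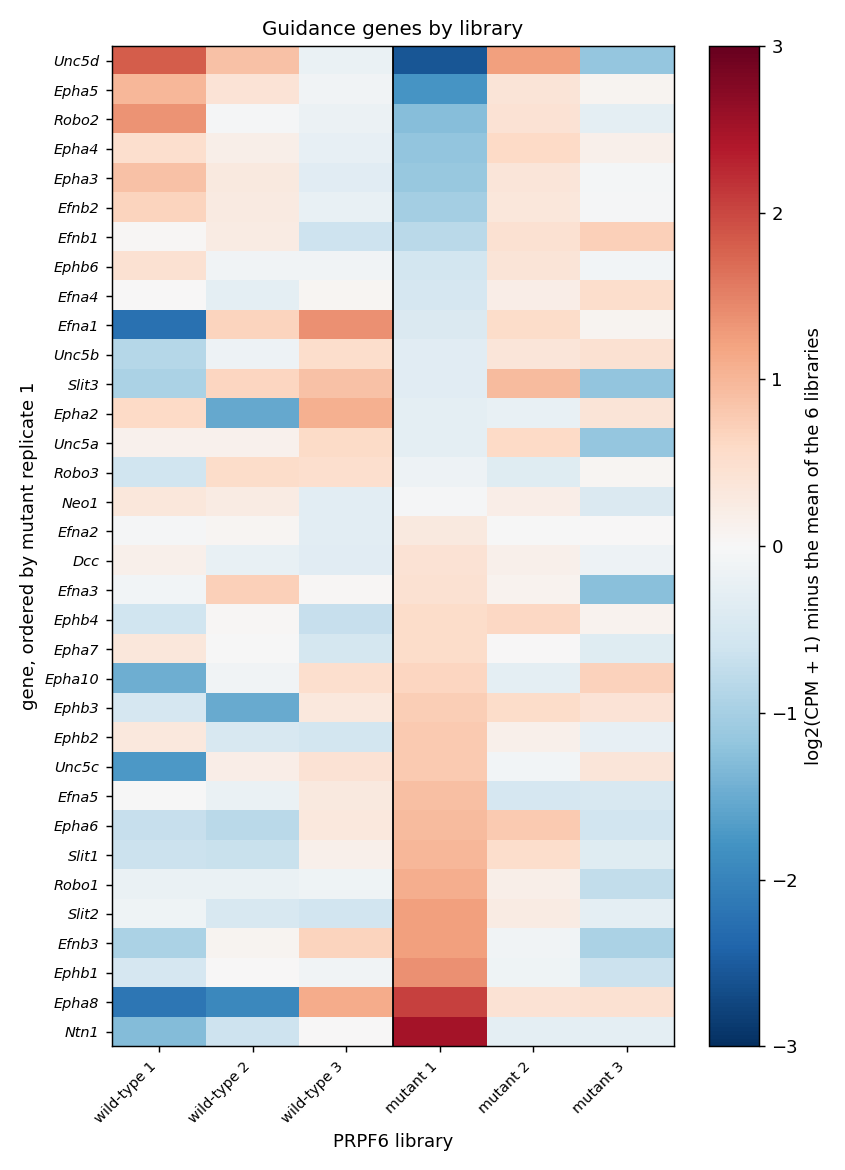
Log2(CPM + 1) of each guidance gene minus its mean over the 6 libraries (colour, red above and blue below), with libraries in columns and genes ordered by mutant replicate 1. Unc5d (4.51 CPM), Epha5 (68.2 CPM) and Robo2 (46.6 CPM) are lowest and Ntn1 (52.9 CPM) and Epha8 (18.0 CPM) highest in mutant replicate 1, and wild-type replicate 1 shows the opposite colour for each of these.

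Promoters are shown for the genes whose groups did not overlap (Ephb3 and Ephb4), for the ligand gene at an unadjusted p under 0.05 (Slit2), and for the receptor gene furthest below the other libraries in mutant replicate 1 (Epha5). Each is the stretch from 250 to 51 bases before the RefSeq start on GRCm38.p6, read in the direction of the gene. The positions are chr16:21204545-21204744 (plus strand) for Ephb3, chr5:137349859-137350058 (plus strand) for Ephb4, chr5:47982905-47983104 (plus strand) for Slit2 and chr5:84417433-84417632 (minus strand) for Epha5. Capitals mark matches, on either strand, to GGGCGG (the GC box), CAGATG (an E-box), TAATTA (a homeodomain core) or ACAAAG (a SOX core).
Ephb3: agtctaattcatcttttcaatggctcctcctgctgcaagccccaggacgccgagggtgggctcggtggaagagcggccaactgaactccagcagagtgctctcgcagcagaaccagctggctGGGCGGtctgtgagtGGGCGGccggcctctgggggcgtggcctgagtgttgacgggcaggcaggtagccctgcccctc
Ephb4: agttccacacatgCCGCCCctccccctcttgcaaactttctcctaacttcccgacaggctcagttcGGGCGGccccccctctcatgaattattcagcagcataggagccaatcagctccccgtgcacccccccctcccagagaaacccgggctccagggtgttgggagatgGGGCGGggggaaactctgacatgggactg
Slit2: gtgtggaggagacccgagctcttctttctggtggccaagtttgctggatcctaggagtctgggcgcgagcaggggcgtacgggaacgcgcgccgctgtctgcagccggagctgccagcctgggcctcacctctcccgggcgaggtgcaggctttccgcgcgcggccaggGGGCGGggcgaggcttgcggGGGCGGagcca
Epha5: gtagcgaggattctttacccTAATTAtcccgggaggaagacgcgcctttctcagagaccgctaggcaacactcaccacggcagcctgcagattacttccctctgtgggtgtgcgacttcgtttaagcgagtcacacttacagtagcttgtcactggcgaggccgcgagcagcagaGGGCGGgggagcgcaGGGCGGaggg
The GC box occurs 2 times in Ephb3, Slit2 and Epha5 and 3 times in Ephb4, and TAATTA occurs 1 time, in Epha5. RefSeq windows were matched for 29 guidance genes (34 windows), and not for Ntn1, Slit1, Unc5d, Efnb3 and Dcc. A GC box lay in 22 of the 34 windows, where 24.6% of all 32851 windows of that length hold it, and their median GC content was 64%, against 51.5%. CAGATG lay in 2 of the 34 (11.95% of all), TAATTA in 3 (4.19%) and ACAAAG in 2 (13.6%). No matches overlap in the promoters shown, and a match is a description of letters only.

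Other genes of the same pathways were read from lists chosen for their known function. Of 23 tested partners of Eph-ephrin signalling, 9 had a higher and 14 a lower fitted mean with mutant PRPF6 (median log2 difference -0.10). For Slit-Robo signalling 11 were higher and 8 lower (median 0.012), and for netrin signalling 9 were higher and 11 lower (median -0.042). No partner passed edgeR's test after adjustment, and 0, 2 and 1 of the lists' genes stood at an unadjusted p under 0.05, or 3 of 62 (4.84%, against 3.38% of all genes). The groups did not overlap for 4 of the 62 (6.45%, against 9.14% of all genes): Dag1, Srgap1, Rasa1 and Tiam1. Dag1, which encodes the Slit-binding glycoprotein dystroglycan, was at 107, 81.4 and 111 CPM with wild-type and 223, 198 and 121 CPM with mutant PRPF6 (0.85 ± 0.25 log2 units, SE; edgeR unadjusted p = 0.00847, adjusted p = 1.00). Srgap1, whose product is a GTPase-activating protein downstream of Robo, was at 42.7, 21.1 and 34.2 CPM and 12.8, 18.3 and 15.3 CPM (-1.08 ± 0.33 log2 units, SE; edgeR unadjusted p = 0.0115, adjusted p = 1.00). Rgma, the gene of a neogenin ligand, was at 25.9, 24.6 and 18.5 CPM and 63.6, 24.5 and 40.2 CPM, with mutant replicate 2 inside the wild-type range. Dscam, the gene of another netrin receptor, was highest in wild-type replicate 1, as were Unc5d and Robo2, at 109, 28.1 and 35.8 CPM with wild-type and 13.2, 45.2 and 10.7 CPM with mutant PRPF6. The Eph signalling partners with the smallest unadjusted p were Rasa1, which encodes a Ras GTPase-activating protein, and Src, which encodes a tyrosine kinase. Rasa1 was at 235, 198 and 174 CPM with wild-type and 119, 173 and 169 CPM with mutant PRPF6, and Src at 57.9, 41.0 and 53.6 CPM and 30.4, 43.9 and 36.3 CPM. The groups of Rasa1 were separated only narrowly. Tiam1, the gene of a Rac exchange factor, is named for its lack of overlap after its values were seen, at 17.3, 15.5 and 16.3 CPM and 9.16, 14.4 and 12.7 CPM.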

How the data were processed

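The authors deposited expected counts per gene, made with RSEM on mm10 per the submitters' processing notes. The RSEM version is, like the aligner, annotation and strand setting, not given in the sources used here. Sequenced cDNA came from very small amounts of RNA through a SMART-Seq v4 kit (per the labels), which does not mark strand or molecules, so overlapping or antisense genes cannot be separated and amplified reads are not independent. The totals exceed the read number stated for the libraries, and whether mates of a pair were counted separately is unknown. Values were rounded, filtered with filterByExpr, scaled by TMM and tested for the effect of group with edgeR 4.0.16 in R 4.3.3 (two-sided quasi-likelihood F-test with robust dispersion, Benjamini-Hochberg threshold 0.05). The SE given for an edgeR log2 difference is the size of that difference divided by the square root of its F statistic. A single count was worth 0.0164 to 0.0228 CPM, and such limits cover counting error only. Exon lengths and coordinates came from GENCODE M21 (GRCm38), promoters from RefSeq (GRCm38.p6). The guidance genes and the lists were chosen with earlier results of these data known. Genes given with position and test were those without overlap, at an unadjusted p under 0.05, or of highest mean CPM in their family. From each partner list the 2 of smallest p were named. The scripts were tested on simulated data in which 200 genes differed by 2 log2 units and all genes shared 1 coefficient of variation. At a coefficient of 0.2 the test recovered 200 of them, with 9 false calls. At 0.66, near the common value of these data, it recovered 1, with 1 false call. The median of the coefficients taken gene by gene, 0.342 over all genes and 0.403 over the guidance genes, lies between these settings. Neither recovery therefore holds for a typical gene. Alternatives were other size factors and filters, DESeq2 1.42.0, limma-voom (limma 3.58.1), a replicate block and leaving out libraries.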

Additional observations from a re-analysis of the deposited data

How the results depend on the processing

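No guidance gene was called under any alternative tried (0 in each), including an adjusted p under 0.1. DESeq2 could not call the 17 guidance genes to which it gave no adjusted p, Ephb3, Ephb4 and Ntn1 among them. Over all genes, DESeq2's test called 6 where edgeR called 0. The number of guidance genes without overlap was 1 with upper-quartile factors (2 as reported) and 4 to 8 when single libraries were left out, where fewer libraries leave less to overlap by construction. These are 11.8% to 23.5% of the guidance genes, where the same fits left 16.2% to 23.4% of all genes without overlap. In a fit added after the data were seen, which left out mutant replicate 1 together with wild-type replicate 3, it was 12 (35.3%, against 29.6% of all genes). The median log2 difference over the guidance genes was 0.00998 to 0.221 when single libraries were left out, lowest without mutant replicate 1. For the 11 genes given with position and test, all 88 values under alternatives that keep every library kept their direction. These are refits of the same libraries, so their agreement is not independent support. Ephb1 turned to -0.18 without mutant replicate 1 (its range over single libraries left out was -0.18 to 1.01). With both libraries left out Ephb1 was at -0.13 and Efna2 at -0.0023. With 1 library left out the log2 differences ran from -1.08 to -0.27 for Epha5, 0.62 to 1.57 for Ephb3, 0.097 to 0.29 for Efna2, 0.023 to 0.66 for Efnb1, 0.39 to 1.22 for Slit2, 0.29 to 2.47 for Ntn1 and 0.13 to 0.45 for Dcc. The replicate block changed no adjusted call (median log2 difference 0.22, Ntn1 1.23, Slit2 0.80). Same-numbered libraries were not shown to be pairs. Their deviations from the group means correlated at 0.054, 0.061 and -0.26, and those of unlike-numbered libraries at -0.25 to 0.26. Such values from 3 libraries a group cannot settle the question. The deposited columns carry the same numbers in both groups, and the labels do not say what the numbers mark.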
